A study of Mus musculus with 6 samples.

Results

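The 52 genes described here encode proteins that assemble, cap, sever, crosslink or anchor actin filaments, and the actin genes themselves were left out. They were taken as the rows of the count table whose Ensembl identifiers map to 52 listed symbols in the GENCODE M21 annotation, and they are 52 of 54532 genes in the table. They were sorted into 9 roles, namely the Arp2/3 complex (9 genes), coronins (2), cofilin, profilin and monomer binding proteins (12), formins (7), Ena/VASP proteins (3), crosslinkers (4), filament side binders (5), capping and severing proteins (4) and linkers to adhesions and membranes (6). The data were gene counts from nuclear poly-A RNA of CMs (cardiomyocytes) from wild-type ICR mouse hearts, with 3 groups and 2 libraries per group. Every mouse received 1e+11 viral genomes of an AAV9 vector by subcutaneous injection at 6 d of age, and hearts were taken at 9 d. The cassette, driven by the cTnT (cardiac troponin T) promoter and so directed to CMs, held GFP in the controls, YAP5SA, a YAP in which the sites phosphorylated by the LATS kinases are changed to alanine, or YAP6SA, which has the same changes and a further serine to alanine change that impairs binding to TEAD factors. Nuclei were selected with an antibody to PCM-1, and the labels give 2 hearts per virus without saying which heart went into which library. The replicate number of a library is its batch number, and p-values measure only the spread between these libraries.

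Actin filaments grow when monomers are released from storage proteins, delivered by profilin and added at ends started by the Arp2/3 complex, which makes branches, or by formins, which make straight filaments. Cofilins cut and disassemble old filaments, capping proteins block their ends, and alpha-actinins and filamins tie them into networks. In heart muscle, these proteins build and renew the thin filaments and anchor them at Z discs and cell junctions, and YAP is known as a transducer of tension in the actin cytoskeleton.

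The 52 genes passed the filter on low counts, which kept 13323 genes, 51 of them in every group and *Diaph3* through the YAP5SA libraries alone. Each library held between 14552847 and 19615627 gene counts, and a gene at 0 could hold up to 3 counts, which covers counting error alone. Levels are given as raw counts, with the value of batch 1 first and then that of batch 2, or as CPM (counts scaled to a common library size with TMM factors, mean ± SD, n = 2 libraries). *Yap1* itself was not called, with log2 fold changes against GFP of -0.09 in YAP6SA and -0.17 in YAP5SA OE (overexpressing) CMs (FDR 0.952 and 0.495), and whether reads of the cassettes were counted on it was not tested. The libraries carried the markers of CMs, with 32800 to 69560 CPM summed over 9 genes. This sum was lower in the YAP5SA libraries (32800 to 45750) than in the GFP (53360 to 69560) and YAP6SA libraries (52470 to 66060). *Myh6* and *Tnnt2* were its largest parts in every library and were not called (FDR 0.0625 and 0.464 in YAP5SA against GFP). The log2 fold changes of the 9 markers there ran from -1.04 for *Myh6* to -0.09 for *Actc1*, so the sum is weighted to a few genes. Of the 9, 2 markers, *Ryr2* and *Pln*, were called lower in YAP5SA than in GFP and than in YAP6SA, although both calls of *Ryr2* were lost without the batch term (FDR 0.074 and 0.0801). Summed CPM of 7 fibroblast markers ran from 842 to 1344 in GFP, 963 to 1741 in YAP6SA and 881 to 1466 in YAP5SA, and that of 6 endothelial markers from 402 to 528, 425 to 617 and 419 to 535. For 6 macrophage markers the ranges were 50.3 to 69.8, 63.1 to 85.7 and 71.1 to 110.6 CPM, and *C1qa* (FDR 0.14 without the batch term) and *Lyz2* were called higher in YAP5SA than in GFP. The 7 mural and smooth muscle markers summed to 512 to 574, 580 to 595 and 353 to 450 CPM, with *Abcc9* called lower and *Myh11* called higher in YAP5SA than in both other groups. *Abcc9* was the largest part of these sums in every library, with 272 to 387, 311 to 374 and 156 to 216 CPM. The lower sum in YAP5SA therefore follows that gene and does not describe the 7 markers as a set. Without the batch term, *Myh11* lost both calls (FDR 0.185 and 0.245) and *Abcc9* that against YAP6SA (FDR 0.0514). The sums of 6 erythroid markers were 48.7 to 59.5, 24.8 to 64.0 and 31.7 to 46.8 CPM. No marker was at 0 in every library, and the part of other cell types in the results below was not tested. Gene positions are those of GRCm38. In bulk nuclei, a change in the share of a cell type and a change in RNA per nucleus cannot be told apart.

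The group of 52 genes took up more of the RNA in YAP5SA OE CMs than in the others. Its share of all gene counts was 0.577% to 0.609% with GFP, 0.629% to 0.656% with YAP6SA, and 0.785% to 0.958% with YAP5SA, so that the groups did not overlap. This share is weighted to abundant genes and does not describe the 52 as a set. *Actn4* and *Flna* held 25597 and 19610 of the 164676 counts of the 52 genes in the YAP5SA library of batch 2. In the GFP library of batch 1 they held 11979 and 13351 of 114644, and 32 of the 52 genes were called in no comparison. The YAP5SA library of batch 2 had the highest CPM of all 6 libraries for 27 of the 52 genes (51.9%), among them *Diaph3*, whereas it did so for 30.6% of all genes tested, and results without it are given below. Compared per kb of exon and averaged over all libraries, levels ran from 0.5 CPM per kb for *Diaph3*, a formin, to 139 for *Actn4*, a non-muscle alpha-actinin, and *Tmsb4x*, a monomer storage protein, was second with 122. Within roles, the highest levels were those of *Actr3* for the Arp2/3 complex (59.9 CPM per kb), *Coro1b* (53.9), *Fhod3* among formins (53.2), *Vasp* (34.6), *Cnn2* among side binders (46.3), *Capzb* among capping proteins (25.7) and *Tln1* among linkers (25.7).

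YAP5SA OE CMs differed from GFP in 19 of the 52 genes, of which 17 were higher and 2 lower, at an FDR under 0.05 (edgeR's quasi-likelihood test, with Benjamini-Hochberg adjustment across the 13323 genes). That is 36.5% of the genes, against 22.0% of all genes tested. The share called higher was 32.7%, against 12.8% of all genes, and 2 genes were called lower, where 9.18% of all genes were. Against YAP6SA OE CMs, 11 were higher and 3 lower in YAP5SA, or 26.9% of the 52 against 14.7% of all genes tested (9% higher and 5.68% lower). In YAP6SA OE CMs compared with GFP, none of the 52 was called, where 0.0450% of all genes were. At an unadjusted p under 0.05, 11 of the 52 were higher and 1 lower, against 514 and 276 of the 13323 genes tested. By other tools, 2 were called higher with DESeq2 and with edgeR's likelihood ratio test (*Cnn2* and *Dstn*), 0 with limma-voom, and 10 when only the 4 libraries compared were fitted, as described below. The shares of all genes called by those other tools are not given here. The median log2 fold change of the 52 genes was 0.13 in YAP6SA against GFP, 0.36 in YAP5SA against GFP and 0.19 in YAP5SA against YAP6SA, where the medians over all genes tested were 0.00179, -0.00314 and -0.01. Both comparisons against GFP share the GFP libraries.

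**Figure D1:**
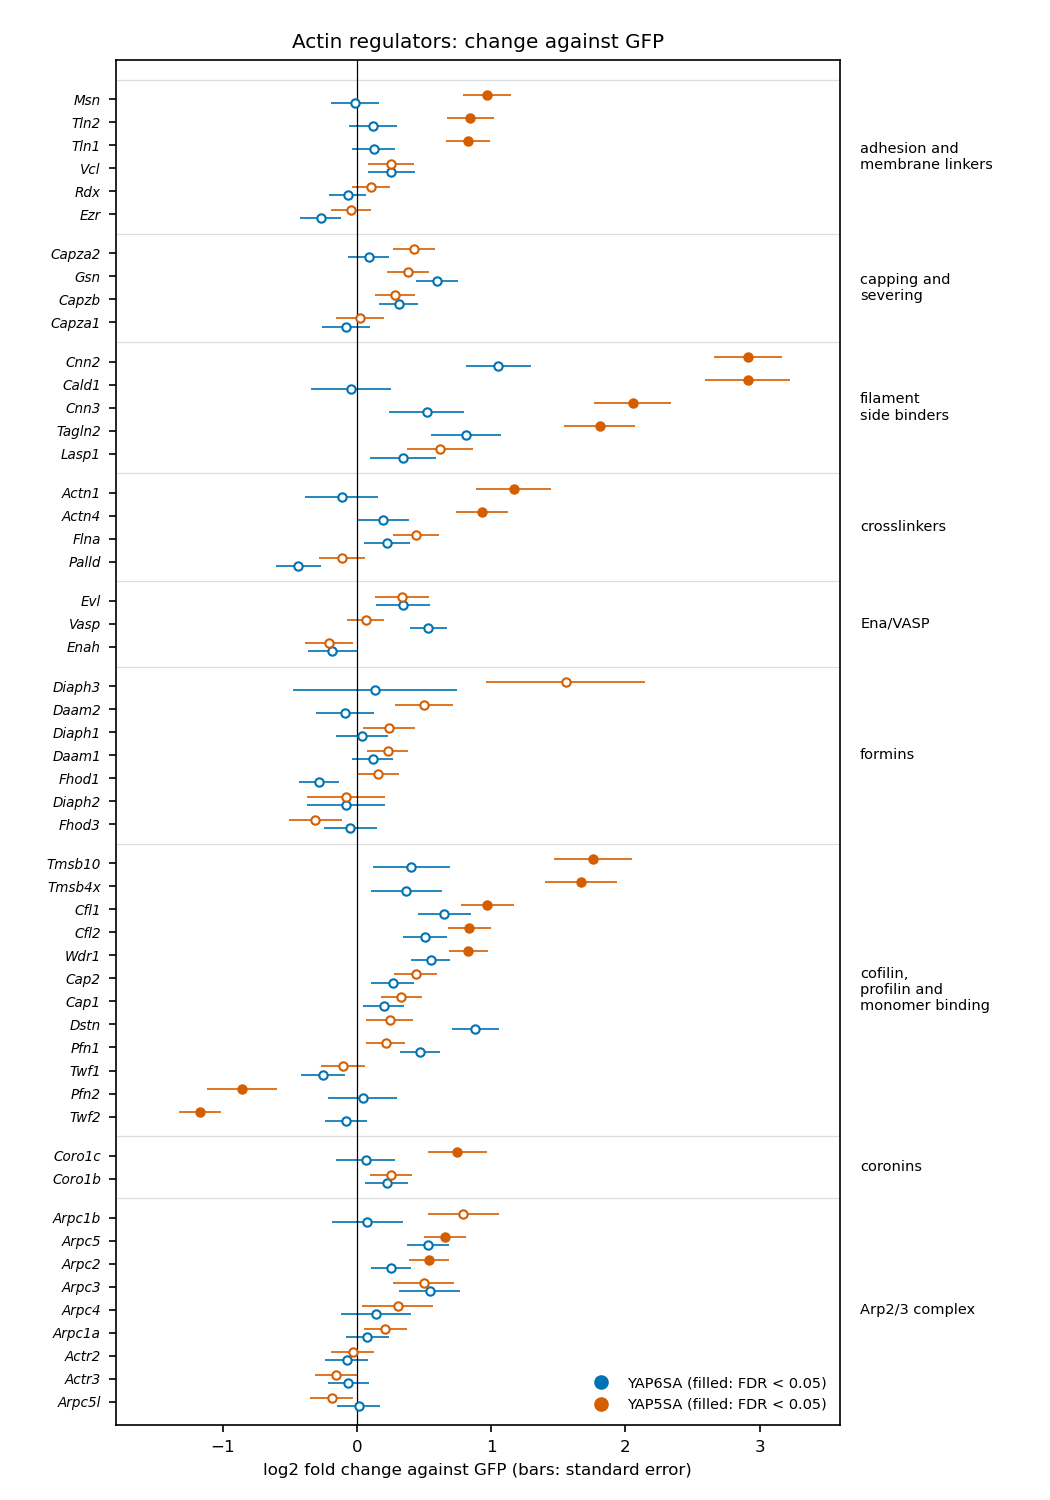
Log2 fold change against GFP (x axis) of each of the 52 genes (y axis, by role) in YAP6SA (blue) and YAP5SA OE CMs (orange), with standard errors as bars and filled symbols for an FDR under 0.05. The filled symbols are all orange, 17 to the right of 0 and 2 to the left, and the filament side binders *Cnn2* and *Cald1* lie farthest to the right, at 2.92 and 2.91.

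The 11 genes higher in YAP5SA OE CMs than in GFP and than in YAP6SA OE CMs were *Actn1*, *Actn4*, *Cald1*, *Cnn2*, *Cnn3*, *Msn*, *Tagln2*, *Tln1*, *Tln2*, *Tmsb4x* and *Tmsb10*. To show what lies before their start sites, the 250 bases upstream of each RefSeq start were searched on both strands for the CArG box, the site of 10 bases that serum response factor binds, and for GGAATG or its reverse complement CATTCC, the core of the site that TEAD factors bind. RefSeq windows (GRCm38.p6) were found for 46 of the 52 genes, 57 windows in all. A CArG box was in 3 of the 57 (5.26%), against 1.47% of 32851 windows of all genes, and the TEAD core was in 10 (17.5%), against 12.6%, and the *Vcl* window held both. Outside the 11 genes, a CArG box was in a window of *Arpc4* and *Vcl*, and a TEAD core in a window of *Arpc2*, *Evl*, *Flna*, *Palld*, *Pfn1* and *Vcl*. Among the 11 genes, *Tln2* had no window and was not searched. *Cnn2* had a CArG box 56 bases before its start, and *Tagln2*, *Cald1* and *Actn4* had a TEAD core, the nearest one 80, 153 and 216 bases before the start. Their windows are shown with these matches in capitals, together with that of *Dstn*, the gene called lower in YAP5SA than in YAP6SA and not called against GFP, which held neither. They lie at chr10:79988350-79988599 (plus strand), chr1:172499996-172500245 (plus), chr6:34598254-34598503 (plus, the first of 2 starts), chr7:28962333-28962582 (minus) and chr2:143915081-143915330 (plus), and each is written 5′ to 3′ on the strand of its gene.
Cnn2: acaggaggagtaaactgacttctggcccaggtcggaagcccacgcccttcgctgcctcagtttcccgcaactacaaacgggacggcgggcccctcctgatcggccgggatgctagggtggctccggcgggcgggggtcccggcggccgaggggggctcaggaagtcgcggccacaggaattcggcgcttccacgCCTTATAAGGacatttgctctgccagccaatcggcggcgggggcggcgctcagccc
Tagln2: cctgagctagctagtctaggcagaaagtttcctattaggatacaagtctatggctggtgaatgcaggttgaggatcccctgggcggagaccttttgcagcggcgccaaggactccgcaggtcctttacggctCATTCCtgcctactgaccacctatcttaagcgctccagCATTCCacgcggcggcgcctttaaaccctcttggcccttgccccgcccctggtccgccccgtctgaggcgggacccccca
Cald1: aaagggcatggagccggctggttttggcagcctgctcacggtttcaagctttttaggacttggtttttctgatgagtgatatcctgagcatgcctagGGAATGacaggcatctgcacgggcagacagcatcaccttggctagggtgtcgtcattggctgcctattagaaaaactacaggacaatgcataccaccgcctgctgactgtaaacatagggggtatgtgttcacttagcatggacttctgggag
Actn4: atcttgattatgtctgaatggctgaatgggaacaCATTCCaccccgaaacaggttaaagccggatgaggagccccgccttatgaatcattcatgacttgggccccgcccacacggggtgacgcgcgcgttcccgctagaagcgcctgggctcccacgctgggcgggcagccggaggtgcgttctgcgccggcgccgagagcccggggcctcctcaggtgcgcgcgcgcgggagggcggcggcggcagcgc
Dstn: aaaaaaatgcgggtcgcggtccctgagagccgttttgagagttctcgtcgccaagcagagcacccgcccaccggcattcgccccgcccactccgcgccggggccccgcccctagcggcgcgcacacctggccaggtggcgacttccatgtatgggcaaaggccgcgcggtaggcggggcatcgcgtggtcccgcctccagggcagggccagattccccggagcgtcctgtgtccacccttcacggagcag
A match describes these letters and is no evidence of binding.

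The filament side binders, which lie along actin filaments and regulate their contact with myosin or with each other, had the largest median change of any role. The roles were set with earlier results of these data known, so this rank depends in part on the grouping. In YAP5SA OE CMs, 4 of the 5 were higher than GFP, where 12.8% of all genes were, with a median log2 fold change of 2.06. The same 4 were higher than YAP6SA, where 9% of all genes were, with a median of 1.54. *Cald1* (ENSMUSG00000029761, chromosome 6, 34598500 to 34775473, plus strand), which encodes caldesmon, an inhibitor of actomyosin, had raw counts of 851 and 363 (GFP), 762 and 445 (YAP6SA), and 2908 and 5386 (YAP5SA). The YAP6SA counts lay between those of GFP, and the YAP5SA counts were above all others. *Cald1* was 7.52-fold higher in YAP5SA than in GFP (log2 fold change 2.91, standard error 0.32, FDR 0.000522) and 7.77-fold higher than in YAP6SA (2.96, FDR 0.000582), and its value in YAP6SA was -0.05 (FDR 0.991). *Cnn2* (ENSMUSG00000004665, chromosome 10, 79988584 to 79996062, plus strand), a calponin of non-muscle cells, had raw counts of 759 and 398 (GFP), 1718 and 830 (YAP6SA), and 3229 and 4738 (YAP5SA). The 3 groups did not overlap and rose in the order GFP, YAP6SA, YAP5SA, with 33.0 ± 9.84, 68.9 ± 26.2 and 240 ± 36.5 CPM. *Cnn2* was 7.55-fold higher in YAP5SA than in GFP (log2 fold change 2.92, standard error 0.25, FDR 0.000187) and 3.64-fold higher than in YAP6SA (FDR 0.00164). In YAP6SA its log2 fold change was 1.05 (standard error 0.24, FDR 0.328), and 1.13 and 0.95 in the batches.

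The other calponin and the transgelin followed. *Cnn3* (ENSMUSG00000053931, chromosome 3, 121426497 to 121458207, plus strand) had raw counts of 416 and 232 (GFP), 637 and 343 (YAP6SA), and 899 and 1630 (YAP5SA). Both YAP5SA libraries were above all others, while GFP and YAP6SA overlapped in CPM (18.5 ± 4.75 and 26.6 ± 8.21, against 75.5 ± 22.5 in YAP5SA). Its log2 fold change was 2.06 against GFP (standard error 0.29, FDR 0.00149) and 1.54 against YAP6SA (FDR 0.00715). Of its exon bases, 17.7% lie opposite the provisional gene model *Gm42928*, which had 46 counts in all libraries against 4157 for *Cnn3*. *Tagln2* (ENSMUSG00000026547, chromosome 1, 172500047 to 172507380, plus strand), a transgelin that stabilizes filaments, had raw counts of 427 and 191 (GFP), 822 and 335 (YAP6SA), and 845 and 1057 (YAP5SA). In CPM, the GFP and YAP6SA libraries overlapped (12.5 to 22.4 and 20.3 to 41.8), and YAP5SA lay above both (56.0 to 59.2). *Tagln2* was 3.50-fold higher in YAP5SA than in GFP (FDR 0.00185) and 2.00-fold higher than in YAP6SA (FDR 0.0296). The latter call was lost without the batch term (FDR 0.14), and without YAP6SA replicate 2 or YAP5SA replicate 2. *Lasp1*, a LIM and SH3 protein with 7.77 to 15.6 CPM, had log2 fold changes of 0.62 against GFP (FDR 0.0976) and 0.28 against YAP6SA (FDR 0.481).

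**Figure D2:**
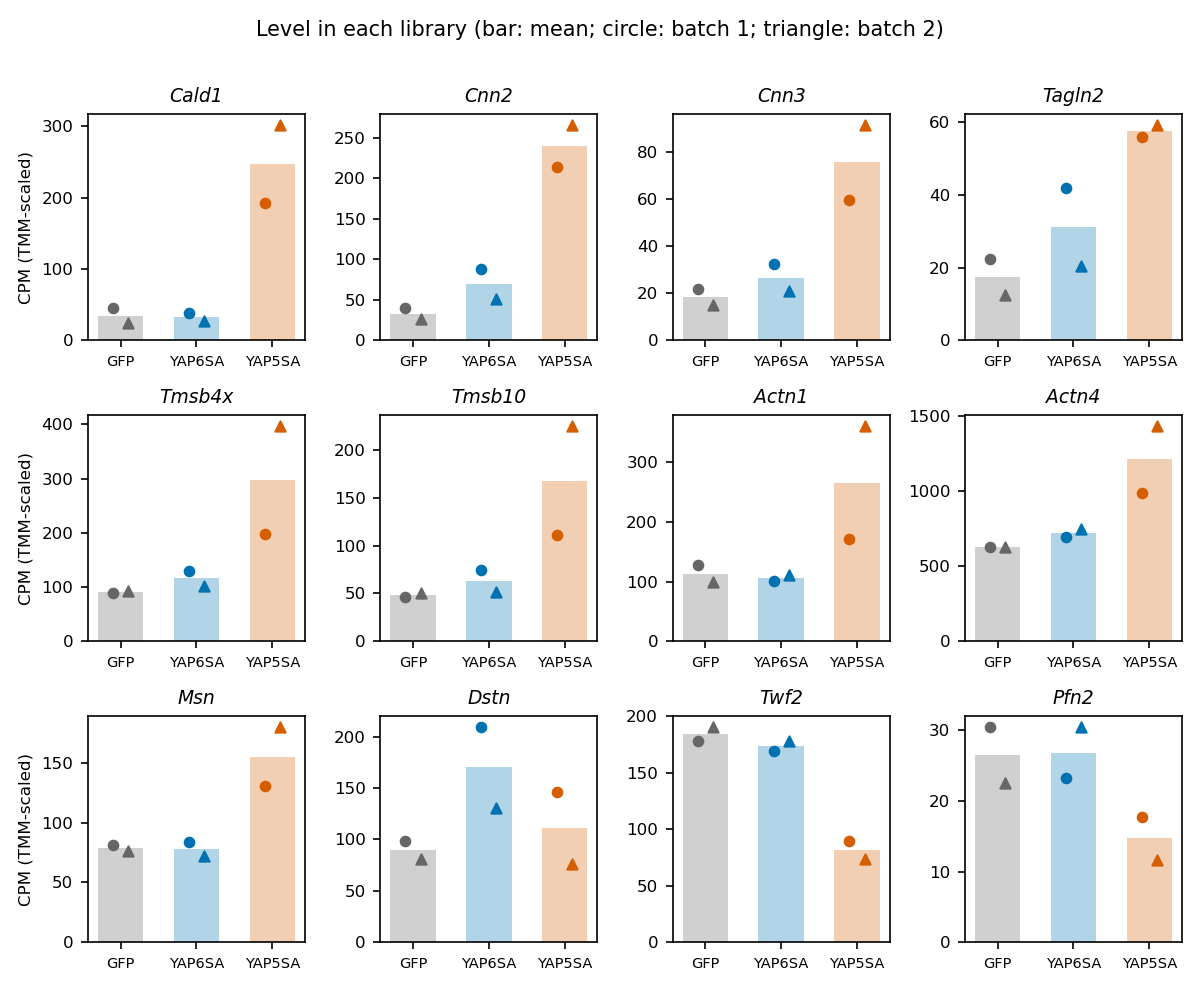
CPM after TMM scaling (y axis, from 0, 1 scale per panel) of 12 genes in each library, with circles for batch 1, triangles for batch 2 and bars for the mean of each group (x axis). From *Cald1* to *Msn*, both YAP5SA libraries lie above all others, *Dstn* is highest in the YAP6SA library of batch 1, and *Twf2* and *Pfn2* are lowest in the YAP5SA libraries.

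Of the 4 crosslinkers, the non-muscle alpha-actinins *Actn1* and *Actn4* were higher in YAP5SA OE CMs than in both other groups. Over all genes tested, 12.8% were called higher than GFP and 9% higher than YAP6SA. *Actn1* (ENSMUSG00000015143, chromosome 12, 80167547 to 80260371, minus strand) had raw counts of 2419 and 1513 (GFP), 1999 and 1824 (YAP6SA), and 2584 and 6438 (YAP5SA). The YAP5SA library of batch 2 held the most by a wide margin, and that of batch 1 was still above the GFP and YAP6SA libraries in CPM (171, against at most 127). The log2 fold change of *Actn1* was 1.17 against GFP (standard error 0.28, FDR 0.0163) and 1.28 against YAP6SA (FDR 0.0146), and the value against GFP was 0.43 in batch 1 and 1.87 in batch 2. *Actn4* (ENSMUSG00000054808, chromosome 7, 28893248 to 28962340, minus strand) had raw counts of 11979 and 9582 (GFP), 13650 and 12355 (YAP6SA), and 14973 and 25597 (YAP5SA). Its GFP and YAP6SA levels were close to each other (628 ± 2.89 and 722 ± 38.6 CPM), and YAP5SA was above them with 1213 ± 313 CPM. The log2 fold change was 0.93 against GFP (standard error 0.20, FDR 0.00954) and 0.73 against YAP6SA (FDR 0.0324), and the call against YAP6SA was lost without the batch term (FDR 0.0621). *Flna*, which encodes filamin A, ran from 702 to 1099 CPM and had a value of 0.44 in YAP5SA against GFP (FDR 0.0948). *Palld*, which encodes palladin of Z discs and stress fibres, ran from 417 to 739 CPM and was the gene with an unadjusted p under 0.05 and a negative value in YAP6SA (log2 fold change -0.44, FDR 0.766). *Flna* and *Palld* were picked once their values were known and not by the naming rule, as were *Lasp1*, *Diaph3* and the other genes described here that no comparison called and that are not the most abundant of their role.

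Among linkers from filaments to adhesions and membranes, both talins and moesin were higher in YAP5SA OE CMs than in both other groups, and 3 of 6 were not called. The shares of all genes called higher were 12.8% against GFP and 9% against YAP6SA. *Tln1* (ENSMUSG00000028465, chromosome 4, 43531519 to 43562691, minus strand), whose product joins integrins to actin, had raw counts of 3589 and 3070 (GFP), 4068 and 3583 (YAP6SA), and 4463 and 7160 (YAP5SA). *Tln2* (ENSMUSG00000052698, chromosome 9, 67217087 to 67559703, minus strand), the talin of striated muscle, had raw counts of 1552 and 1965 (GFP), 2172 and 1834 (YAP6SA), and 2393 and 3836 (YAP5SA). In CPM, GFP (189 and 200) and YAP6SA (207 and 217) were close for *Tln1* and overlapped for *Tln2*, and YAP5SA lay above both groups for either gene. The log2 fold changes against GFP were 0.83 for *Tln1* (standard error 0.16, FDR 0.00723) and 0.84 for *Tln2* (standard error 0.18, FDR 0.00918), and those against YAP6SA were 0.70 (FDR 0.0191) and 0.73 (FDR 0.023). The calls against YAP6SA were lost without the batch term (FDR 0.0531 and 0.0756). *Msn* (ENSMUSG00000031207, chromosome X, 96096042 to 96168552, plus strand), which encodes moesin, a tether of filaments to the membrane, had raw counts of 1548 and 1172 (GFP), 1644 and 1194 (YAP6SA), and 1971 and 3205 (YAP5SA). It rose 1.96-fold against GFP (log2 fold change 0.97, standard error 0.18, FDR 0.00582) and 1.98-fold against YAP6SA (FDR 0.00748), and GFP and YAP6SA were alike in CPM (79.0 ± 3.43 and 78.0 ± 7.95). Its relatives *Ezr* and *Rdx*, for ezrin and radixin, and *Vcl*, for vinculin, had values from -0.04 to 0.25 in YAP5SA against GFP and from -0.00287 to 0.23 against YAP6SA. Of the exon bases of *Vcl*, 25.5% overlap *Ap3m1* on the other strand, and in libraries without strand the reads of that stretch are ambiguous.

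The proteins that store, deliver or remove monomers held calls in both directions. Compared with GFP, 5 of the 12 were higher and 2 lower in YAP5SA OE CMs, where 12.8% and 9.18% of all genes were. Compared with YAP6SA, 2 were higher and 3 lower, where 9% and 5.68% of all genes were. The beta-thymosins, which hold monomers in reserve, were the ones above YAP6SA. *Tmsb4x* (ENSMUSG00000049775, chromosome X, 167207093 to 167209315, minus strand), for thymosin beta 4, had raw counts of 1695 and 1417 (GFP), 2544 and 1688 (YAP6SA), and 2974 and 7078 (YAP5SA). *Tmsb10* (ENSMUSG00000079523, chromosome 6, 72957347 to 72958748, minus strand), for thymosin beta 10, had raw counts of 882 and 779 (GFP), 1473 and 853 (YAP6SA), and 1677 and 4012 (YAP5SA). For either gene the YAP5SA library of batch 2 was far above that of batch 1 in CPM (397 against 197, and 225 against 111), and both were above the other groups. *Tmsb4x* was 3.18-fold higher in YAP5SA than in GFP (log2 fold change 1.67, standard error 0.27, FDR 0.00293) and 2.47-fold higher than in YAP6SA (FDR 0.0122). *Tmsb10* was 3.38-fold (FDR 0.00344) and 2.55-fold higher (FDR 0.0145). Of the 100-base stretches of *Tmsb10* transcripts, 11.1% also occur in other genes, and reads that fit several genes are not in these counts.

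The cofilins and their partner were above GFP in YAP5SA OE CMs. *Cfl1*, the cofilin of most cells, had counts of 669 and 519 (GFP), 1248 and 748 (YAP6SA), and 921 and 1318 (YAP5SA). *Cfl2*, the cofilin of muscle, had counts of 1009 and 650 (GFP), 1532 and 959 (YAP6SA), and 1279 and 1503 (YAP5SA). *Wdr1*, which encodes AIP1, an aid to cofilin in disassembly, had counts of 2077 and 1450 (GFP), 3357 and 2135 (YAP6SA), and 2892 and 3040 (YAP5SA). In all 3 genes, GFP did not overlap with either variant in CPM, while the variants overlapped with each other for *Cfl1* and *Wdr1*. The log2 fold changes in YAP5SA were 0.97 for *Cfl1* (standard error 0.20, FDR 0.00791), 0.84 for *Cfl2* (standard error 0.16, FDR 0.00648) and 0.83 for *Wdr1* (standard error 0.15, FDR 0.0047). The values in YAP6SA were 0.65, 0.51 and 0.55 (FDR 0.603, 0.647 and 0.497), and between the variants they were 0.32, 0.33 and 0.28 (FDR 0.294, 0.193 and 0.225). Part of *Cfl1* (468 exon bases) overlaps *Snx32* on the other strand, which had 2567 counts in all libraries against 5423 for *Cfl1*.

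Destrin, profilin and twinfilin went other ways. *Dstn* (ENSMUSG00000015932, chromosome 2, 143915320 to 143943324, plus strand), which encodes destrin, also called actin depolymerizing factor, had raw counts of 1881 and 1235 (GFP), 4110 and 2158 (YAP6SA), and 2206 and 1363 (YAP5SA). It was highest in YAP6SA (209 and 131 CPM, against 98.9 and 80.6 in GFP and 146 and 76.4 in YAP5SA), and within each batch YAP6SA was above YAP5SA, although the 2 groups overlapped across batches. Set against YAP6SA, *Dstn* fell in YAP5SA OE CMs (log2 fold change -0.64, standard error 0.17, FDR 0.0356), with -0.52 and -0.78 in the batches. The call was lost without the batch term (FDR 0.241). Its value against GFP was 0.88 in YAP6SA (standard error 0.17, FDR 0.225), the second largest of the 52 there after *Cnn2*, and 0.24 in YAP5SA (FDR 0.348). *Twf2* (ENSMUSG00000023277, chromosome 9, 106203108 to 106215389, plus strand), a twinfilin that binds monomers and filament ends, had raw counts of 3396 and 2918 (GFP), 3337 and 2942 (YAP6SA), and 1361 and 1324 (YAP5SA). The YAP5SA libraries were below all others, and *Twf2* fell to 0.445 of GFP (log2 fold change -1.17, standard error 0.16, FDR 0.00131) and to 0.471 of YAP6SA (FDR 0.00246). *Pfn2* (ENSMUSG00000027805, chromosome 3, 57841895 to 57848079, minus strand), the less abundant profilin, had raw counts of 578 and 346 (GFP), 457 and 502 (YAP6SA), and 268 and 208 (YAP5SA). The YAP5SA libraries (17.8 and 11.7 CPM) were below all others (22.6 to 30.4). *Pfn2* was lower in YAP5SA than in GFP (log2 fold change -0.86, standard error 0.26, FDR 0.0409) and than in YAP6SA (-0.90, FDR 0.0459), and both calls were lost without the batch term (FDR 0.0639 and 0.08). The call against YAP6SA was also lost when only the 4 libraries compared were fitted (FDR 0.0503). *Pfn1*, the main profilin, had counts of 3166 and 2963 (GFP), 4832 and 4129 (YAP6SA), and 3044 and 3833 (YAP5SA). Its log2 fold changes were 0.47 in YAP6SA (FDR 0.653) and 0.21 in YAP5SA (FDR 0.334), and -0.25 between the variants (FDR 0.278), and in CPM YAP6SA (246 and 250) lay above the other groups. *Cap1*, *Cap2* and *Twf1* had values from -0.10 to 0.44 in YAP5SA against GFP and were not called.

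Of the 9 subunits of the Arp2/3 complex, *Arpc2* and *Arpc5* were called higher in YAP5SA OE CMs than in GFP (22.2%, against 12.8% of all genes tested), and no subunit was called between the variants. *Arpc2*, a core subunit, had counts of 1112 and 787 (GFP), 1306 and 1061 (YAP6SA), and 1165 and 1462 (YAP5SA). *Arpc5* had counts of 1111 and 654 (GFP), 1569 and 1081 (YAP6SA), and 1217 and 1374 (YAP5SA). *Arpc2* was above GFP in both variants and *Arpc5* also, without overlap in CPM. Their log2 fold changes in YAP5SA were 0.54 (standard error 0.15, FDR 0.0307) and 0.66 (standard error 0.16, FDR 0.0163), those in YAP6SA were 0.25 (FDR 0.874) and 0.53 (FDR 0.592), and those between the variants 0.28 (FDR 0.23) and 0.13 (FDR 0.627). The call for *Arpc5* was lost without the batch term (FDR 0.0533), and that for *Arpc2* when any library but YAP5SA replicate 1 was left out and in the fit of the 4 libraries compared (FDR 0.0569). *Actr3*, the most abundant subunit and one of the actin-related proteins that start a branch, had counts of 5574 and 4423 (GFP), 5583 and 4501 (YAP6SA), and 4337 and 4237 (YAP5SA). Its CPM ran from 238 to 293, and its log2 fold change was -0.15 in YAP5SA (FDR 0.511) and -0.06 in YAP6SA (FDR 0.964). Over the role, the median log2 fold change was 0.08 in YAP6SA, 0.30 in YAP5SA and 0.13 between the variants, with values between the variants from -0.20 for *Arpc5l* to 0.72 for *Arpc1b* (FDR 0.0992). The value of *Arpc1b* was 0.13 in batch 1 and 1.28 in batch 2. Of its exon bases, 18.2% overlap *Pdap1* on the other strand, which had 2371 counts in all libraries against 2788 for *Arpc1b*. Of its 100-base stretches, 17% also occur in other genes. Of the coronins, which work with the complex at branches, *Coro1c* had counts of 353 and 255 (GFP), 400 and 272 (YAP6SA), and 400 and 579 (YAP5SA) and was higher in YAP5SA than in GFP (log2 fold change 0.75, standard error 0.22, FDR 0.0369), a call that was lost without the batch term (FDR 0.0512) and in the fit of the 4 libraries compared (FDR 0.0515). Against YAP6SA its value was 0.68 (FDR 0.0651). *Coro1b*, the more abundant coronin, had counts of 2953 and 2321 (GFP), 3064 and 3388 (YAP6SA), and 2553 and 3545 (YAP5SA), and its values were 0.22, 0.25 and 0.03 in the 3 comparisons.

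No formin, Ena/VASP protein or capping protein was called in any of the 3 comparisons. The formin *Fhod3*, which is needed to keep sarcomeres in order, had counts of 6638 and 7471 (GFP), 8073 and 6523 (YAP6SA), and 5565 and 5411 (YAP5SA). GFP overlapped with both variants, and the log2 fold change was -0.31 in YAP5SA (standard error 0.20, FDR 0.297) and -0.05 in YAP6SA (FDR 0.981). *Diaph3*, a formin with the largest standard error of its role, had 51 and 11 counts in GFP, 31 and 34 in YAP6SA, and 64 and 97 in YAP5SA. It passed the filter only through YAP5SA, the group in which it was high, so its value of 1.55 against GFP (standard error 0.59) is given without a test. Without *Diaph3*, the median of the formins was 0.19 in YAP5SA against GFP and 0.16 between the variants. The other formins had values from -0.08 to 0.50 against GFP in YAP5SA and from -0.00086 to 0.59 between the variants. *Vasp*, which speeds the growth of filament ends, had counts of 1515 and 1161 (GFP), 2299 and 1781 (YAP6SA), and 1283 and 1385 (YAP5SA). Its YAP6SA libraries (117 and 108 CPM) were above those of GFP (79.7 and 75.8) and YAP5SA (85.0 and 77.6), while GFP and YAP5SA overlapped. The log2 fold change of *Vasp* was 0.53 in YAP6SA (standard error 0.14, FDR 0.478) and 0.06 in YAP5SA (FDR 0.778), and -0.47 between the variants (standard error 0.14, FDR 0.0506), just outside the threshold. *Capzb*, the beta subunit of the capping protein, had counts of 1567 and 998 (GFP), 1894 and 1418 (YAP6SA), and 1370 and 1561 (YAP5SA), with values of 0.31, 0.28 and -0.03. *Gsn*, which encodes gelsolin, a protein that severs and caps, had counts of 1285 and 762 (GFP), 2238 and 1104 (YAP6SA), and 1309 and 1169 (YAP5SA), with values of 0.60 in YAP6SA (FDR 0.475), 0.38 in YAP5SA (FDR 0.109) and -0.22 between the variants. *Capza1* and *Capza2* ran from -0.08 to 0.42 in the 3 comparisons. Of the 100-base stretches of *Capza1* transcripts, 51.7% also occur in other genes, so that its counts may miss many reads.

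Set side by side by role, the direct comparison of the variants gave the highest medians to the filament side binders (1.54), the crosslinkers (0.53) and the linkers (0.47), which held 9 of the 11 genes called higher in YAP5SA. The medians were 0.36 for the coronins, 0.20 for the formins, 0.16 for the monomer binding group, 0.13 for the Arp2/3 complex, 0.04 for the capping proteins and -0.02 for the Ena/VASP proteins, against -0.01 over all genes tested. The formin median and its range below include *Diaph3*, which passed the filter only through YAP5SA. Without that gene the formin median was 0.16, so it did not stand apart from that of the monomer binding group. With each library left out in turn, these medians ran from 0.92 to 2.12 for the side binders, 0.40 to 0.67 for the crosslinkers, 0.34 to 0.58 for the linkers, 0.23 to 0.51 for the coronins and 0.0873 to 0.40 for the formins. They ran from 0.0421 to 0.33 for the monomer binding group, 0.0401 to 0.15 for the Arp2/3 complex, -0.00299 to 0.0975 for the capping proteins and -0.19 to 0.15 for the Ena/VASP proteins. The ranges of all roles but the side binders overlapped with that of another role, and the order of those roles was not fixed. Because the roles were set with earlier results known, their ranking describes this grouping and is no test. Among the roles of filament assembly and turnover, the beta-thymosins were the sole genes called higher, and *Dstn*, *Pfn2* and *Twf2* the sole genes called lower. Within batches, 32 of the 52 genes were higher and 8 lower in YAP5SA than in YAP6SA in both (61.5% and 15.4%, against 35.5% and 36.7% of all genes tested). *Diaph3* is among the 32, and its way past the filter favours such a rise. The differences were wider in batch 2 than in batch 1, with medians of 2.13 and 0.88 for the side binders and 0.28 and 0.12 over all 52 genes.

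**Figure D3:**
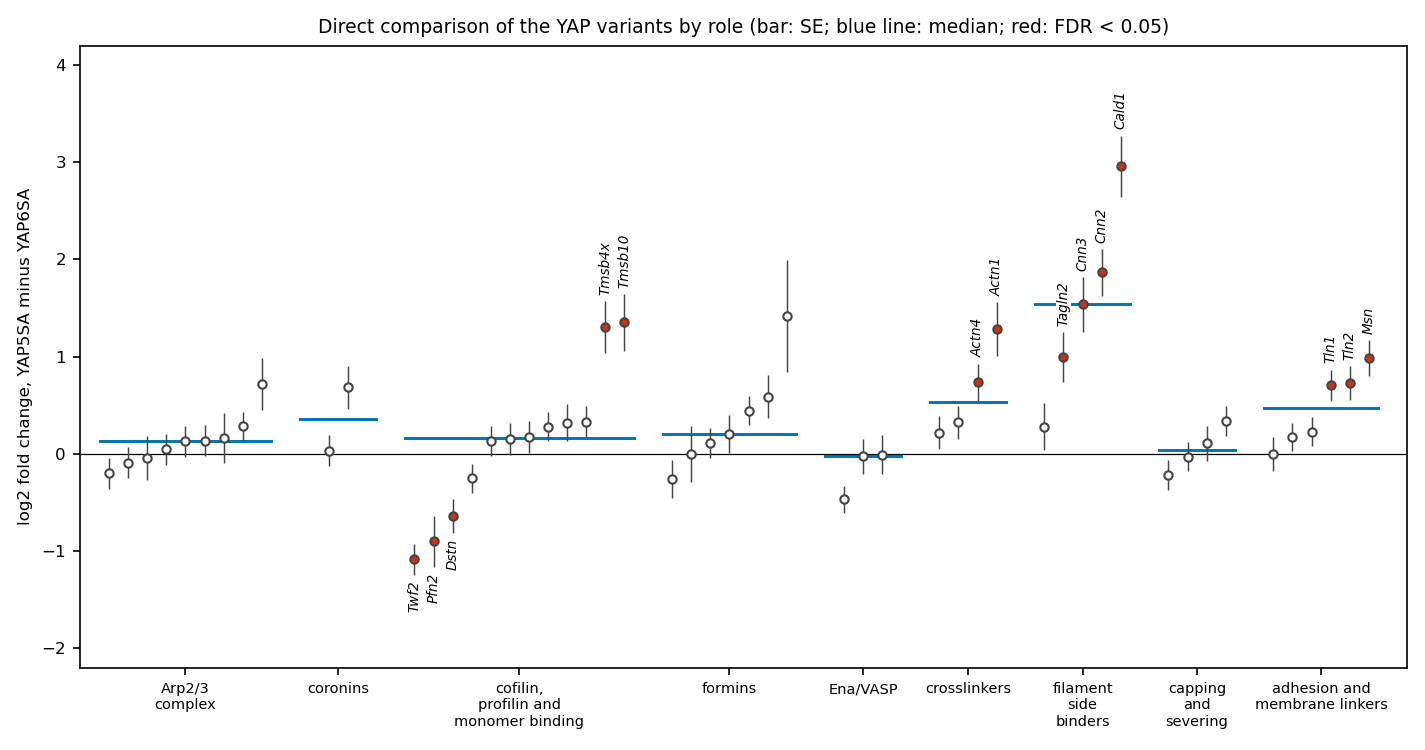
Log2 fold change of YAP5SA against YAP6SA OE CMs (y axis) for each of the 52 genes, by role (x axis), with standard errors as bars, the median of each role as a blue line and red symbols for an FDR under 0.05. The red symbols above 0 are 4 side binders, 2 crosslinkers, 3 linkers and 2 beta-thymosins, and those below 0 are *Twf2*, *Pfn2* and *Dstn*.

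The YAP6SA comparison depended on which libraries set the spread. When the 4 libraries of GFP and YAP6SA were fitted alone, with the batch term, 10 of the 52 genes were higher and 0 lower than GFP (19.2%, against 2.07% of all genes in either direction and 1.49% higher, with 0.585% lower). They were *Arpc5*, *Cfl1*, *Cfl2*, *Cnn2*, *Dstn*, *Gsn*, *Pfn1*, *Tagln2*, *Vasp* and *Wdr1*, and 5 of them belong to the 12 monomer binding and cofilin proteins. *Gsn* and *Pfn1* are described because of this call, not by the naming rule. In that fit, *Cnn2* had a log2 fold change of 1.05 (standard error 0.14, FDR 7.46e-05) and *Dstn* 0.90 (standard error 0.13, FDR 0.000181), followed by *Tagln2* with 0.81 (FDR 0.0108), *Cfl1* with 0.65 (FDR 0.0195), *Gsn* with 0.60 (FDR 0.0136) and *Wdr1* with 0.56 (FDR 0.0144). *Vasp* had 0.54 (FDR 0.0195), *Arpc5* 0.54 (FDR 0.0291), *Cfl2* 0.51 (FDR 0.0443) and *Pfn1* 0.47 (FDR 0.0431). This fit leaves few residual degrees of freedom. In the fit of all 6 libraries without the batch term, each of the 10 had an FDR of 0.998. GFP and YAP6SA overlapped in CPM for *Gsn* and *Tagln2*. All 10 were higher than GFP in both batches, as were 29.4% of all genes tested. A fit with the batch term picks genes whose batches go the same way, so this adds no support to the calls. Of the 10, 6 were past the threshold in YAP5SA OE CMs as well in the fit of all libraries, and the other 4 (*Dstn*, *Gsn*, *Pfn1* and *Vasp*) had larger values in YAP6SA than in YAP5SA, of which the difference between the variants passed the threshold for *Dstn*. *Cald1*, *Actn1* and *Msn*, which were among the genes raised in YAP5SA, had values of -0.01, -0.07 and -0.01 in the 4-library fit of YAP6SA.

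**Figure D4:**
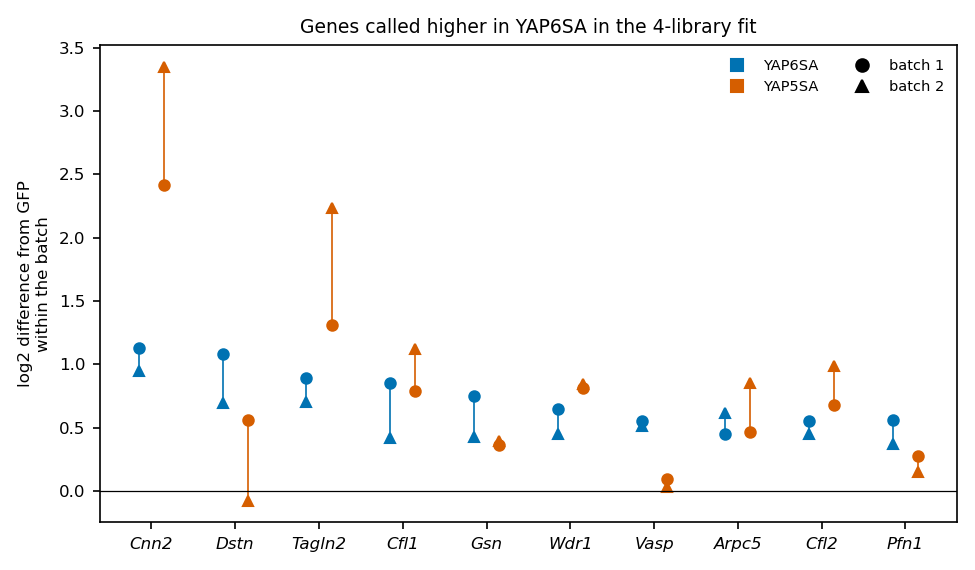
Log2 difference from the GFP library of the same batch (y axis) for the 10 genes called higher in YAP6SA in the fit of 4 libraries (x axis), in YAP6SA (blue) and YAP5SA (orange), with circles for batch 1 and triangles for batch 2. All blue symbols lie above 0, from 0.37 for *Pfn1* to 1.13 for *Cnn2*, which the choice of the genes by that fit favours. The orange symbols of *Dstn* run from -0.08 to 0.56.

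A wider list of 73 other actin regulators, among them WAVE and cofilin kinase genes, further formins, tropomodulins and spectrins, had 67 genes past the filter. In YAP6SA OE CMs, 1 of the 67 was called higher (1.49%, against 0.0450% of all genes tested) and 0 lower than GFP. At an unadjusted p under 0.05, 5 were higher and 0 lower, against 514 and 276 of the 13323 genes tested. The gene called was *Srf*, the serum response factor, with 1204 and 909 counts in GFP and 3122 and 2410 in YAP6SA. Its log2 fold change was 1.31 (FDR 0.0424), and the call was lost without the batch term (FDR 0.361). In YAP5SA, 16 were higher and 6 lower than GFP (23.9% and 8.96%, against 12.8% and 9.18% of all genes tested). The 3 with the largest rise were *Cobl* (log2 fold change 2.84), a nucleator, *Fmnl2* (1.73), a formin, and *Cnn1* (1.70), the smooth muscle calponin. *Cnn1* did not pass the filter in GFP and was tested only through the variants, where it was higher. Its call, 1 of the 16, is therefore no support for a rise, and it was lost without the batch term (FDR 0.127). The 3 with the largest fall were *Ablim1* (-1.01), *Svil* (-0.80, FDR 0.0573 without that term) and *Lmod3* (-0.78), a leiomodin of thin filament ends. Against YAP6SA, 10 were higher and 3 lower in YAP5SA (14.9% and 4.48%, against 9% and 5.68%), led by *Cobl* (2.85), *Fmnl2* (1.78) and the formin *Fhdc1* (1.47), and by *Tmod1* (-0.70), which caps thin filaments, *Ablim1* (-0.67), both lost without the batch term (FDR 0.0568 and 0.0734), and *Ssh2* (-0.64), a phosphatase that activates cofilin. *Cobl* had 223 and 207 counts in GFP, 181 and 295 in YAP6SA, and 803 and 2729 in YAP5SA, so that GFP and YAP6SA overlapped and YAP5SA was above both. The median log2 fold change of the list was -0.02 in YAP6SA, 0.15 in YAP5SA and 0.11 between the variants.

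Several of these calls rest on single libraries. Without YAP5SA replicate 2, the library with the highest levels, fewer of the 52 genes were called against GFP and against YAP6SA. The values of *Actn1* were then 0.56 against GFP and 0.64 against YAP6SA, those of *Tmsb4x* 1.06 and 0.71 and those of *Tmsb10* 1.10 and 0.74, and that of *Cnn3* against YAP6SA was 0.92, all still past the threshold. *Arpc2* (FDR 0.0902), *Coro1c* (0.49, FDR 0.198) and *Pfn2* (FDR 0.164) lost their calls against GFP, and *Tagln2* (0.48, FDR 0.19), *Actn4* (FDR 0.0634), *Pfn2* (-0.59, FDR 0.213) and *Dstn* (-0.41, FDR 0.158) theirs against YAP6SA. Without YAP5SA replicate 1, by contrast, the value of *Tagln2* against YAP6SA was 1.51.

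Without GFP replicate 2, fewer genes were called higher than GFP. *Actn1* (0.69, FDR 0.221), *Actn4* (FDR 0.167), *Tln1* (FDR 0.117), *Msn* (FDR 0.0803), *Cfl1* (FDR 0.0611), *Cfl2* (FDR 0.0909), *Wdr1* (FDR 0.0555), *Arpc2* (FDR 0.351), *Arpc5* (FDR 0.256), *Coro1c* (FDR 0.288) and *Pfn2* (FDR 0.103) lost their calls. Without GFP replicate 1, *Tln2* (FDR 0.098), *Arpc2* (FDR 0.0926), *Coro1c* (FDR 0.11) and *Pfn2* (FDR 0.259) did. Against YAP6SA, only the calls of *Cald1*, *Cnn2* and *Twf2* were left without YAP6SA replicate 2. There the values of *Tmsb4x* (0.86, FDR 0.191), *Tmsb10* (0.80, FDR 0.19), *Tagln2* (0.66, FDR 0.378), *Tln2* (0.47, FDR 0.408) and *Pfn2* (-0.43, FDR 0.631) moved most among the lost calls. Without YAP6SA replicate 1, *Actn4* (FDR 0.182), *Tln1* (FDR 0.0857) and *Dstn* (FDR 0.172) lost their calls against YAP6SA. In such fits the group with 1 library is assumed to vary like the others. The calls against GFP that held whichever of the 6 libraries was left out were those of *Cald1*, *Cnn2*, *Cnn3*, *Tagln2*, *Tmsb4x*, *Tmsb10* and *Twf2*, and against YAP6SA those of *Cald1*, *Cnn2* and *Twf2*.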

How the data were processed

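Nuclear poly-A RNA of PCM-1-selected CM nuclei was sequenced in non-directional libraries, 2 in each of 3 groups. STAR alignment to mm10 with Ensembl 94 gene models was done by the authors, who deposited raw counts per gene without normalization or filter. Reads outside genes, ambiguous between genes or mapping to several places (2.90% to 4.19% of a library for the latter) are not in the gene counts. The STAR version and the counting options are not given in the sources used here. Total gene counts ran from 14552847 to 19615627.

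Genes were named from GENCODE M21. Genes with a median log2 CPM over 1 in at least 1 group were kept (13323 of 54532). Batch and group terms were fitted over all 6 libraries by edgeR 4.0.16 (R 4.3.3) after TMM scaling, with its quasi-likelihood test, adjusted by Benjamini-Hochberg over all genes kept, threshold 0.05. The batch term pairs the libraries. The pairing comes from the labels, which equate replicate and batch numbers, and same-batch libraries deviated from their group means with correlations across genes of 0.368 (GFP and YAP6SA), 0.0985 (GFP and YAP5SA) and 0.175 (YAP6SA and YAP5SA). The fit was tested on simulated data.

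The members, roles, lists and tests were chosen with earlier results of these data known. Members past the threshold in a comparison and the most abundant of each role (counts per kb of exon) were to be named. The alternatives were scaling by RLE or upper quartile, a filter of at least 10 counts in every library or none, the likelihood ratio test, DESeq2 1.42.0, limma-voom (limma 3.58.1), no batch term, the 4 libraries compared, thresholds of 0.01 and 0.1, and each library left out in turn. Promoter windows came from RefSeq (GRCm38.p6).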

Additional observations from a re-analysis of the deposited data

How the results depend on the processing

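No direction of a called value changed under any alternative. RLE scaling, upper quartile scaling, a filter of at least 10 counts in every library, limma-voom and a threshold of 0.1 left all 6 counts of called genes within 1.5 times their value. Of the 52 genes, the number higher in YAP6SA than in GFP was 3 when no gene was filtered out, 2 with the likelihood ratio test, 2 with DESeq2 and 10 in the fit of the 4 libraries compared. Without the batch term (no replicate block), 1 gene was lower in YAP5SA than in GFP, and 7 were higher and 1 lower than in YAP6SA, while it changed no other count by over 1.5 times and no call in YAP6SA. At a threshold of 0.01, 1 was lower than GFP, and 4 were higher and 1 lower than YAP6SA. Apart from the fit of the 4 libraries, the shares of all genes called under these alternatives are not given here. The counts therefore do not set the 52 genes apart from the rest.

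With each library left out in turn, the number higher in YAP6SA than in GFP ran from 0 to 8 (8 without YAP5SA replicate 1 or 2). In YAP5SA against GFP, 7 (without GFP replicate 2) to 24 (without YAP5SA replicate 1) were higher and 1 to 3 lower, and against YAP6SA 2 (without YAP6SA replicate 2) to 19 (without YAP5SA replicate 1) were higher and 1 to 5 lower. The median log2 fold change of the 52 genes ran from 0.0554 to 0.23 in YAP6SA, 0.28 to 0.47 in YAP5SA and 0.15 to 0.32 between the variants. The ranges by role stand beside the medians above, with 0.40 to 0.67 for the crosslinkers and -0.19 to 0.15, across 0, for the Ena/VASP proteins. The fit of the 4 libraries compared lost the calls of *Arpc2*, *Coro1c* and *Pfn2*, the latter against YAP6SA.

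Changes of sign were looked for in 27 genes only. These are the genes called in a comparison, the most abundant of each role, and *Gsn* and *Pfn1*. The remaining genes of the group were not checked, so a gene missing from the list below is not shown to be stable in sign. Among the genes checked, the values that changed sign were not called. The ranges given are those over the fits that each left out a library. In YAP6SA against GFP, they were -0.43 to 0.47 for *Pfn2* (-0.0212 with limma-voom), -0.54 to 0.42 for *Actn1*, -0.14 to 0.0101 for *Actr3*, -0.48 to 0.52 for *Cald1*, -0.13 to 0.24 for *Coro1c*, -0.36 to 0.29 for *Fhod3*, -0.23 to 0.17 for *Msn*, -0.15 to 0.38 for *Tln2*, -0.22 to 0.90 for *Tmsb10*, -0.12 to 0.76 for *Tmsb4x* and -0.18 to 0.017 for *Twf2*. In YAP5SA against GFP they were -0.000881 to 0.50 for *Dstn* and -0.62 to 0.0234 for *Fhod3*. Between the variants they were -0.20 to 0.0401 for *Actr3*, -0.0122 to 0.28 for *Arpc5*, -0.12 to 0.0792 for *Capzb* and -0.11 to 0.19 for *Coro1b*. The cause was not tested.

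With 2 libraries per group, spread is estimated from few residual degrees of freedom, and outlying libraries could not be tested. Depth limits *Diaph3* and *Cnn1*, with 11 counts in a GFP library each.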
